A study of Mus musculus with 12 samples.

Results

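The genes described here are 10 genes of the Notch pathway, chosen by name: the ligand *Jag1*, the receptors *Notch1*, *Notch2* and *Notch4*, the receptor protease *Adam10*, the nuclear factors *Rbpj* and *Maml2*, the ubiquitin ligase *Dtx4* and the target genes *Hes1* and *Hey1*. They are 10 of the 53801 genes in the count tables, and all 10 were among the 20580 genes tested, those that reached 5 counts in 1 or more of 12 samples. RNA-seq libraries came from 2 subsets of dendritic cells (DCs) sorted from mouse intestine, CD103+CD11b- and CD103-CD11b+, with 3 samples of each subset from wild type (WT) mice and 3 of each from CbfbF/F:CD11c-Cre mice (cKO), all of mixed background. In cKO mice both *Cbfb* alleles, which encode the partner subunit of the Runx transcription factors, carry loxP sites, and a Cre transgene under CD11c control deletes them in cells that express CD11c, a control that is known to be active in some T cells too. The age of the mice was not given in the labels, and each of the 3 samples of a group came from a different mouse. Each library was made from a bulk of sorted cells, so fewer cells of a type and less RNA per cell cannot be told apart.

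Notch signalling passes between touching cells. A ligand such as Jag1 on one cell binds a Notch receptor on the next, the protease Adam10 and then γ-secretase cut the receptor, and its intracellular part moves to the nucleus, where it joins the DNA-binding protein Rbpj and a Mastermind coactivator such as Maml2 and switches on genes of the Hes and Hey families. Notch2 signalling is known to be needed for CD11b+ conventional DCs (cDC2s) in spleen and gut, and the same pathway is strongly used by blood vessel endothelium, where Notch1, Notch4, Jag1 and Hey1 are all known to act.

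Promoter sequences are shown for *Rbpj*, the member that differed between the DC subsets in both genotypes, for *Notch4*, the member with the smallest p between the genotypes, and for *Maml3*, the Mastermind gene called in both genotype comparisons below. They are RefSeq sequences of build GRCm38.p6, from 250 bases before to 50 bases after the annotated start, written 5′ to 3′ on the gene's strand. Capitals mark the core of the RBPJ site, TGGGAA, on either strand. The *Rbpj* promoter shown, the first of 2 in RefSeq, lies at chr5:53590096-53590395 (+), the *Notch4* promoter at chr17:34564045-34564344 (+) and the *Maml3* promoter at chr3:52104957-52105256 (-).
Rbpj: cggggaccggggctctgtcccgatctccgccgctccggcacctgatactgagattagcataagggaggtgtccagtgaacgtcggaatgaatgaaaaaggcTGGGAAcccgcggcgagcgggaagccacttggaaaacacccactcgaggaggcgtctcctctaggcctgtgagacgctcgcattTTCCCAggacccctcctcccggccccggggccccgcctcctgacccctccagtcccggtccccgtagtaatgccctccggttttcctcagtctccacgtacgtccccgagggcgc
Notch4: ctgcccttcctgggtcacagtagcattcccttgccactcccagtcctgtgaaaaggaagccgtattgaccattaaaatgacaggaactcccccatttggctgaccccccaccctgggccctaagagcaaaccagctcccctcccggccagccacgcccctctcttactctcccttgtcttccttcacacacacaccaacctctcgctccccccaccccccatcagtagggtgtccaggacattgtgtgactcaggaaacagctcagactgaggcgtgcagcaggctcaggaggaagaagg
Maml3: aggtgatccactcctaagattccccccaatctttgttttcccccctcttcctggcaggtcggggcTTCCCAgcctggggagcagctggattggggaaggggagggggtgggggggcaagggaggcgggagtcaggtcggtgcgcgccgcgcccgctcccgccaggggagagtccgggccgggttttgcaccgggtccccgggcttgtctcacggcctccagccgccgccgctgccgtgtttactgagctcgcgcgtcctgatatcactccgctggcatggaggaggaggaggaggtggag

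The RBPJ core began 149 and 65 bases before the *Rbpj* start and 185 bases before the *Maml3* start, and these letters did not occur in the *Notch4* window. Of the 9 promoters held for 7 of the 10 members, 3 had a match, those of 2 genes (*Rbpj* and *Maml2*), against 25.6% of 32851 mouse promoters of the same length. No promoter was held for *Hes1*, *Hey1* or *Dtx4*, so those were not searched. The windows of the 2 *Rbpj* promoters overlap, and the match in the second is the same site as the one 65 bases before the start in the first. The core of the RUNX site, TGNGGT on either strand, where N is any base, occurred in none of the 9, against 45.8% of all promoters. A match is a description of the letters only.

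The samples held 2161929 to 5863484 counts on genes each. Levels are given as CPM, the counts scaled to the size of the library with TMM factors, and 3 counts, the floor used here, correspond to 0.485 to 1.53 CPM. The sort markers were as labelled in level: *Itgae* (CD103) was 767 ± 142 and 699 ± 67.2 CPM (SD, n = 3) in WT and cKO CD103+CD11b- DCs and 190 ± 79.4 and 50.4 ± 27.2 CPM in CD103-CD11b+ DCs, and *Itgam* (CD11b) was 4.33 ± 0.590 and 8.14 ± 2.57 against 90.6 ± 13.2 and 164 ± 52.4 CPM. *Cbfb* over the whole gene was 199 to 228 and 215 to 290 CPM in WT and cKO CD103+CD11b- DCs and 161 to 217 and 170 to 273 CPM in WT and cKO CD103-CD11b+ DCs, so it did not separate the genotypes and checks no label. Summed over marker genes, CD103+CD11b- and CD103-CD11b+ samples held 4871 to 8057 and 1958 to 3375 CPM of 8 cDC1 genes, 84.1 to 626 and 976 to 1623 of 6 cDC2 genes, 19.7 to 73.2 and 175 to 533 of 9 macrophage genes, 47.7 to 145 and 49.0 to 480 of 7 B cell genes, and 8.21 to 52.4 and 16.3 to 118 of 7 T cell genes. The sum of 5 plasmacytoid DC genes was 592 to 1473 CPM in WT and 202 to 538 CPM in cKO CD103+CD11b- DCs, without overlap, and 604 to 913 and 369 to 640 CPM in WT and cKO CD103-CD11b+ DCs. That of 13 epithelial genes was 113 to 267 and 21.9 to 121 CPM in WT and cKO CD103+CD11b- DCs, and 275 to 400 and 76.8 to 116 CPM, without overlap, in WT and cKO CD103-CD11b+ DCs. The epithelial sum rested on a few abundant genes such as *Cdh1* and *Epcam*, and the median log2 fold change of the 12 tested epithelial genes for cKO against WT was 1.61 in CD103+CD11b- and -1.93 in CD103-CD11b+ DCs. The part of these shifts in the differences between genotypes was not tested. Endothelial and stromal genes are given beside the results they move with.

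Per length of exon, *Notch2* had the highest level of the 10 genes in each of the 4 groups, between 62.1 and 68.0 RPKM (CPM divided by the exon length in kilobases, group means). Its samples ranged from 58.1 to 72.8 RPKM in WT CD103+CD11b- DCs, and the next gene, *Rbpj*, ranged from 27.1 to 28.8 RPKM. In cKO CD103+CD11b- DCs *Rbpj* was again the next, at 27.5 to 34.4 RPKM below *Notch2* at 59.8 to 64.2 RPKM, and in cKO CD103-CD11b+ DCs the next was *Adam10*, at 29.6 to 38.0 RPKM below *Notch2* at 58.7 to 82.8 RPKM. In WT CD103-CD11b+ DCs *Jag1* came next, and its range of 14.7 to 75.2 RPKM overlapped that of *Notch2*, 59.5 to 76.5 RPKM. *Hey1* had the lowest mean in 3 of the groups, 1.27, 0.673 and 4.08 RPKM in WT and cKO CD103+CD11b- and cKO CD103-CD11b+ DCs, and *Maml2* had the lowest, 11.2 RPKM, in WT CD103-CD11b+ DCs. The other neighbours in the order mostly overlapped: only *Dtx4* and *Notch1*, and *Maml2* and *Hey1*, were also apart in WT CD103+CD11b- DCs, and only *Rbpj* and *Adam10*, *Hes1* and *Notch1*, and *Jag1* and *Hey1* in cKO CD103+CD11b- DCs.

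**Figure D1:**
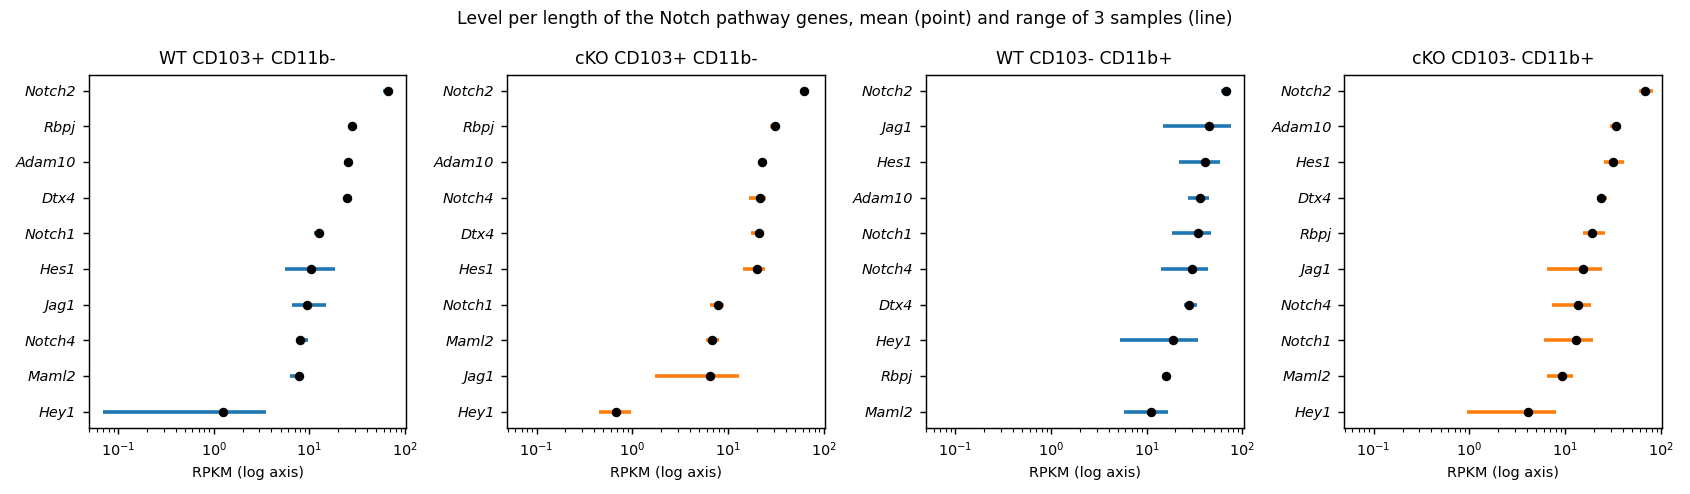
Level per kilobase of exon (RPKM, log axis) of the 10 genes in each group, ordered by the mean, with points for the mean and lines for the range of 3 samples. *Notch2* leads in each panel, at 62.1 to 68.0 RPKM, while *Hey1* in WT CD103+CD11b- DCs spans 0.0701 to 3.52 RPKM.

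The counts of members called are given first. A gene was called when its false discovery rate (FDR, the Benjamini-Hochberg adjusted p over all 20580 genes) in edgeR's quasi-likelihood test was under 0.05 and its fold change over 1.3. Between cKO and WT, 0 of 10 members were called in CD103+CD11b- DCs, where 1.02% of all genes were (0.224% higher and 0.797% lower in cKO), and 0 of 10 in CD103-CD11b+ DCs, where 1.61% were (1.11% higher and 0.500% lower). At an unadjusted p under 0.05 there were 1 and 2 members, against 2166 and 3590 of all 20580 genes, and both DESeq2 and edgeR's likelihood ratio test called 1 in each subset, *Notch4* and *Notch1*. DESeq2 called 655 and 1136 of all genes in these comparisons and the likelihood ratio test 598 and 1054, against 210 and 331 here. Between the subsets in WT mice 5 of 10 members were called, *Notch1*, *Notch4*, *Hes1* and *Hey1* higher and *Rbpj* lower in CD103-CD11b+ DCs, where 18.8% of all genes were called, 11.8% higher and 7.00% lower. Between the subsets in cKO mice 2 of 10 were called, *Adam10* higher and *Rbpj* lower, where 16.1% of all genes were, 9.26% higher and 6.81% lower. This model had no pairs, and when same-numbered cKO samples were paired by a block 3 were called there, *Jag1* joining, with 4427 of all genes called against 3307. The difference of the cKO effect between the subsets passed for 0 of 10 members with this test, where 0.651% of all genes passed (0.554% with a higher and 0.0972% with a lower effect in CD103-CD11b+ DCs), and 1 member had an unadjusted p under 0.05, against 2284 of all genes. It was *Notch4*, which DESeq2 and the likelihood ratio test both called, with 502 and 413 of all genes against 134. These comparisons share samples: each of the 4 groups enters a comparison of genotypes and a comparison of subsets.

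The samples of the groups did not overlap for 2 members between genotypes in CD103+CD11b- DCs (18.1% of all genes), for 0 in CD103-CD11b+ DCs (20.1%), for 5 between the WT subsets (38.1%) and for 3 between the cKO subsets (34.0%). The median log2 fold change of the members was -0.18 and -0.30 for cKO against WT in CD103+CD11b- and CD103-CD11b+ DCs, against -0.017 and -0.061 over all genes. It was 0.98 and 0.52 for CD103-CD11b+ against CD103+CD11b- DCs in WT and cKO mice, against 0.066 and 0.11 over all genes. Leaving out 1 library changed the count between the WT subsets to 2 without CD103+CD11b- replicate 1 (*Notch4* and *Rbpj*), 1 without replicate 2 (*Rbpj*), 4 without replicate 3 (*Notch1* lost), 7 without CD103-CD11b+ replicate 1 (*Adam10* and *Jag1* gained), 2 without replicate 2 (*Notch4* and *Rbpj*) and 3 without replicate 3 (*Notch4*, *Rbpj* and *Hes1*). Between the cKO subsets it became 1 without CD103+CD11b- replicate 1 (*Rbpj*), 0 without replicate 2 or 3, 0 without CD103-CD11b+ replicate 1 or 2, and 3 without replicate 3 (*Notch1* gained). Without WT CD103-CD11b+ replicate 1, 2 members were called for cKO against WT in CD103-CD11b+ DCs (*Notch1* and *Notch4*) and 1 for the difference of the effects (*Notch4*). The count over all genes moved as well when a library was left out, from 3860 to between 1410 and 4140 for the WT subsets, from 3307 to between 2124 and 3638 for the cKO subsets, from 331 to between 121 and 517 for the genotypes in CD103-CD11b+ DCs and from 134 to between 29 and 210 for the difference of the effects.

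**Figure D2:**
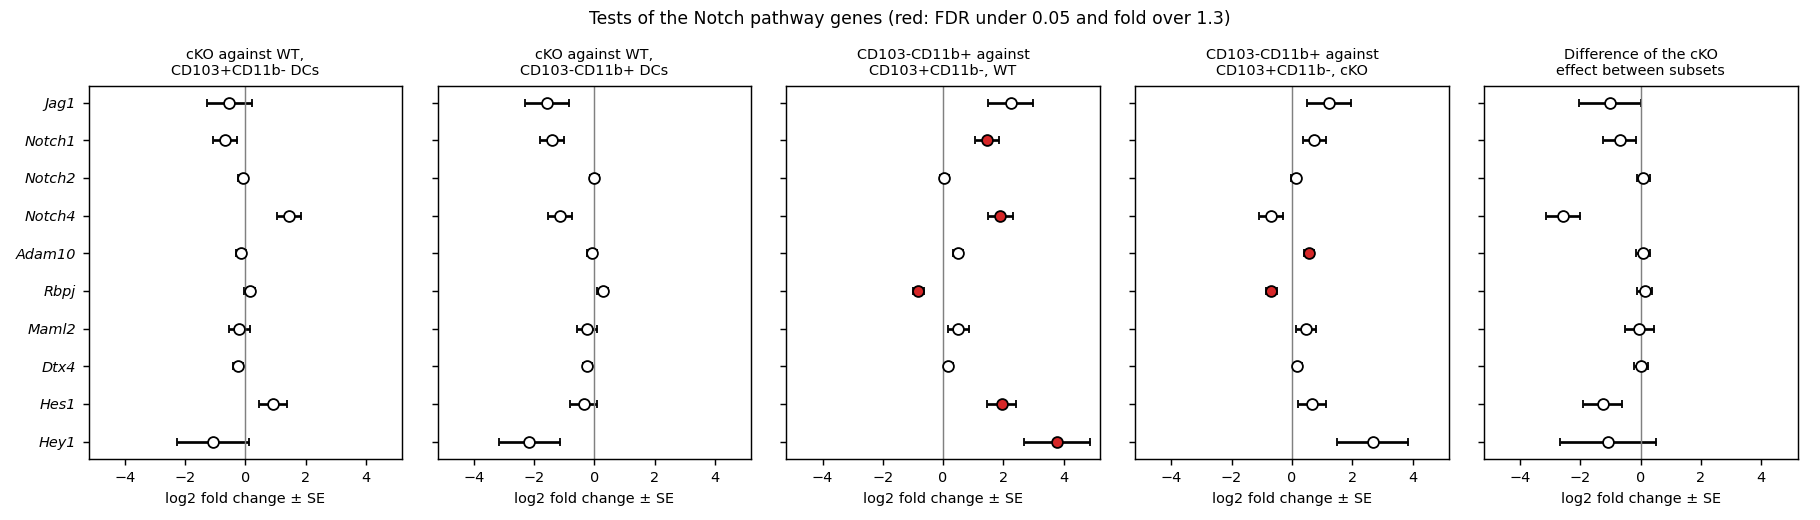
Log2 fold change (points) with its standard error (bars) of the 10 genes in 5 comparisons, filled red where the gene was called. The 5 called genes between the WT subsets stand beside 2 between the cKO subsets and 0 in each comparison of genotypes, and *Notch4* lies on opposite sides of 0 in the first 2 panels, at 1.44 and -1.15.

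*Jag1* (chr2:137081456-137116644) encodes a membrane ligand that binds Notch receptors on the neighbouring cell. Gene positions are those of GRCm38 in GENCODE M21, from the first to the last exon base. Its level was 38.6, 38.4 and 87.3 CPM in WT and 27.7, 75.2 and 10.2 CPM in cKO CD103+CD11b- DCs, and 85.7, 264 and 438 CPM in WT and 86.7, 141 and 37.2 CPM in cKO CD103-CD11b+ DCs. The samples varied widely within each group, those of the WT subsets just overlapped, and no comparison was called in the main model. CD103-CD11b+ against CD103+CD11b- gave a log2 fold change of 2.25 ± 0.75 (SE) in WT mice with an FDR of 0.0575, and 1.22 ± 0.74 in cKO mice with an FDR of 0.283. The difference in WT mice was called in 5 of 11 alternatives, with FDRs of 0.0032 to 0.917. In cKO mice samples with the same replicate number deviated together. With the number as a block within each genotype the difference in cKO mice was 1.40 with an FDR of 0.0172, over a range of 0.0172 to 0.507 among 11 alternatives. The genotypes gave log2 values of -0.53 ± 0.74 (CD103+CD11b-) and -1.55 ± 0.73 (CD103-CD11b+), with FDRs of 0.916 and 0.301.

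*Notch1* (chr2:26457903-26516663) encodes one of the receptors. It was 192, 190 and 158 CPM in WT and 114, 129 and 91.1 CPM in cKO CD103+CD11b- DCs, so that every cKO sample lay below every WT sample, yet the log2 fold change of -0.69 ± 0.39 had an FDR of 0.640. In CD103-CD11b+ DCs it was 264, 675 and 535 CPM in WT and 198, 275 and 84.6 CPM in cKO samples. These groups overlapped, through WT replicate 1 at 264 CPM and cKO replicate 2 at 275 CPM, and the log2 fold change was -1.39 ± 0.40 with an FDR of 0.105. Without WT CD103-CD11b+ replicate 1 the gene was called, with an FDR of 0.0437 in a range of 0.0437 to 0.261 over the 6 libraries left out, and among 10 other settings the FDR ran from 0.0115 (DESeq2) to 0.302. Between the subsets *Notch1* was higher in CD103-CD11b+ DCs of WT mice, with no overlap, by a log2 fold change of 1.45 ± 0.40 (FDR 0.0289), and that of 0.75 ± 0.39 in cKO mice had an FDR of 0.218. Its call between the WT subsets held in 1 of 6 fits that left out a library. Of the exon bases of *Notch1*, 10.4% are shared with genes on the other strand, from which reads could not be told apart, since reads were counted without regard to strand.

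*Notch2* (chr3:98013527-98150361), the receptor known to act in cDC2 development, varied little across the study. The samples ranged from 627 to 785 CPM in WT and 645 to 693 CPM in cKO CD103+CD11b- DCs, and from 642 to 825 CPM in WT and 633 to 893 CPM in cKO CD103-CD11b+ DCs. Groups overlapped in all 4 comparisons. The log2 fold changes lay between -0.085 and 0.13, each with an SE of 0.15, and their FDRs between 0.591 and 1.

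*Notch4* (chr17:34564268-34588503), a receptor best known from endothelium, was 57.8, 57.7 and 78.1 CPM in WT and 190, 203 and 133 CPM in cKO CD103+CD11b- DCs. Every cKO sample lay above every WT sample. The difference was 2.71-fold, or 1.44 ± 0.40 on the log2 scale, with an unadjusted p of 0.00437 and an FDR of 0.151 in edgeR's quasi-likelihood test, and it was not called. In CD103-CD11b+ DCs the samples were 115, 354 and 258 CPM in WT and 117, 150 and 58.6 CPM in cKO mice, and overlapped (log2 -1.15 ± 0.40, FDR 0.173). The test of the difference between these effects gave -2.59 ± 0.57 on the log2 scale, an unadjusted p of 0.000800 and an FDR of 0.0822. DESeq2 called *Notch4* in CD103+CD11b- DCs (FDR 0.0118), within a range of 0.00491 to 0.136 over 10 alternatives and of 0.171 to 0.465 over the 6 libraries left out, and the difference of the effects had an FDR of 0.000649 to 0.0761 over 10 alternatives and 0.0200 to 0.234 over 12 libraries left out. Between the subsets in WT mice *Notch4* was 3.74-fold higher in CD103-CD11b+ DCs, without overlap (log2 1.90 ± 0.41, FDR 0.0112), and the call held in 5 of 6 fits that left out a library. In cKO mice the same comparison gave a log2 fold change of -0.68 ± 0.40 with an FDR of 0.262.

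**Figure D3:**
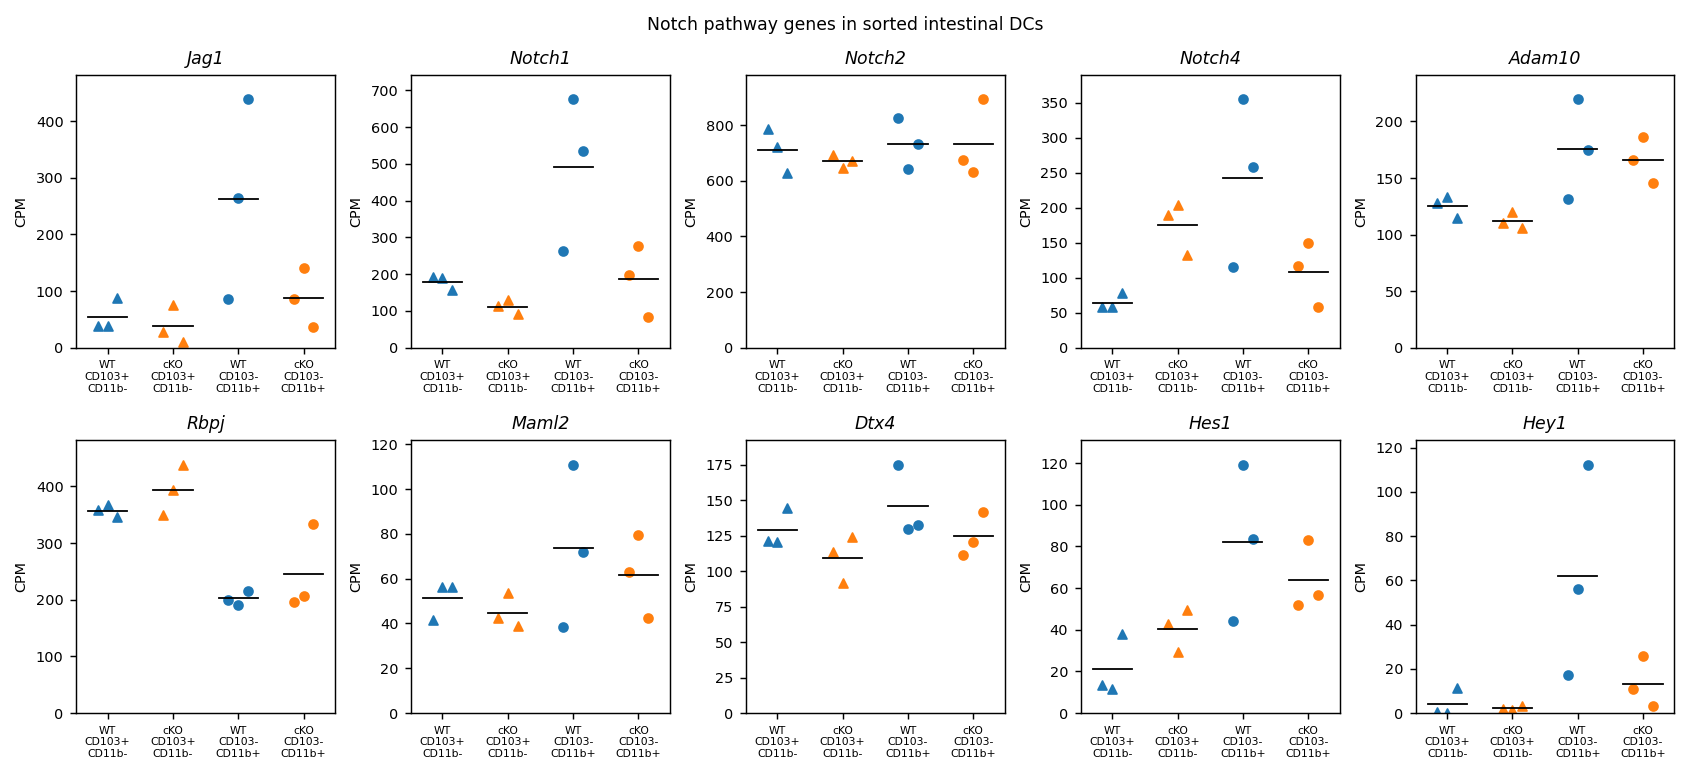
CPM of each of the 10 genes in 12 samples (points, 3 per group; triangles CD103+CD11b-, circles CD103-CD11b+; blue WT, orange cKO) with the group mean as a line, on axes that start at 0. *Notch4* in CD103+CD11b- DCs is 57.7 to 78.1 CPM in WT and 133 to 203 CPM in cKO samples, and *Rbpj* is 346 to 367 CPM in WT CD103+CD11b- against 191 to 216 CPM in WT CD103-CD11b+ DCs.

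*Adam10* (chr9:70678997-70780229) encodes the membrane protease that makes the first cut in a ligand-bound receptor. It was 128, 134 and 114 CPM in WT and 110, 120 and 106 CPM in cKO CD103+CD11b- DCs, and 132, 220 and 175 CPM in WT and 166, 187 and 145 CPM in cKO CD103-CD11b+ DCs. The cKO subsets did not overlap, and *Adam10* was 1.48-fold higher in CD103-CD11b+ DCs there (log2 0.57 ± 0.17, FDR 0.0433). The WT subsets overlapped, through CD103-CD11b+ replicate 1, with a log2 fold change of 0.48 ± 0.17 and an FDR of 0.0674. The call in cKO mice held in 1 of 6 fits that left out a library. Genotypes differed by log2 fold changes of -0.16 ± 0.17 and -0.076 ± 0.17 in CD103+CD11b- and CD103-CD11b+ DCs, and neither was called.

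*Rbpj* (chr5:53466152-53657362) encodes the DNA-binding protein to which Notch signals converge. It was 358, 367 and 346 CPM in WT CD103+CD11b- DCs against 200, 191 and 216 CPM in WT CD103-CD11b+ DCs. The samples lay close together within each of these groups and the groups were well apart. It was 1.77-fold lower in CD103-CD11b+ DCs (log2 -0.82 ± 0.18, FDR 0.0123), and the call held in 6 of 6 fits that left out a library. In cKO mice it was 350, 393 and 438 CPM in CD103+CD11b- and 196, 207 and 333 CPM in CD103-CD11b+ DCs, again without overlap and 1.61-fold lower in the latter (log2 -0.69 ± 0.18, FDR 0.0247). There replicate 3 of the CD103-CD11b+ group stood above the other 2, and 2 of 6 fits that left out a library called the gene. That library had the fewest counts on genes of all samples, 2161929. Its cDC1 sum of 3375 CPM (2308 and 1958 CPM in replicates 1 and 2) and cDC2 sum of 1623 CPM (1027 and 1082 CPM) were the highest of its group. Their part in its *Rbpj* level was not tested. The cKO samples differed from WT by 0.14 ± 0.18 (CD103+CD11b-) and 0.28 ± 0.18 (CD103-CD11b+) on the log2 scale, with FDRs of 0.899 and 0.453.

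*Maml2* (chr9:13297957-13709388), a Mastermind coactivator that joins the Notch and Rbpj complex, and *Dtx4* (chr19:12466338-12501454), a ubiquitin ligase of the Deltex family that acts on Notch receptors, were called in no comparison. *Maml2* ranged from 38.4 to 111 CPM over all 12 samples, and its largest log2 fold change was 0.51 ± 0.34, between the WT subsets, with an FDR of 0.321. *Dtx4* ranged from 91.5 to 175 CPM, and cKO against WT gave -0.24 ± 0.16 and -0.23 ± 0.16 on the log2 scale in CD103+CD11b- and CD103-CD11b+ DCs, with FDRs of 0.738 and 0.484.

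*Hes1* (chr16:30064384-30067796) and *Hey1* (chr3:8663359-8667256) encode transcriptional repressors that Notch signalling induces directly. *Hes1* was 13.7, 11.4 and 38.0 CPM in WT CD103+CD11b- DCs against 44.0, 119 and 83.5 CPM in WT CD103-CD11b+ DCs, and 42.8, 29.3 and 49.3 CPM against 52.1, 83.3 and 56.6 CPM in the same subsets of cKO mice. Neither pair of subsets overlapped. The difference was called in WT mice, at 3.83-fold (log2 1.94 ± 0.47, FDR 0.0189), and was 0.67 ± 0.46 on the log2 scale with an FDR of 0.349 in cKO mice. The call in WT mice held in 3 of 6 fits that left out a library, and without CD103+CD11b- replicate 3 the log2 fold change was 2.65. Between genotypes *Hes1* differed by 0.91 ± 0.47 on the log2 scale in CD103+CD11b- DCs (FDR 0.569), where WT replicate 3 overlapped the cKO samples, and by -0.36 ± 0.45 in CD103-CD11b+ DCs (FDR 0.725).

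*Hey1* was 0.684, 0.229 and 11.5 CPM in WT CD103+CD11b- DCs, from 2, 1 and 71 counts, so the first 2 samples lay under the floor of 3 counts. In WT CD103-CD11b+ DCs it was 17.2, 56.0 and 112 CPM, above each of those, and it was called with a log2 fold change of 3.77 ± 1.09 and an FDR of 0.0358. That call held in 2 of 6 fits that left out a library. The log2 fold change was 7.03 without CD103+CD11b- replicate 3, which held 71 of the counts of its group, and 3.001 without CD103-CD11b+ replicate 3. The former library also had the highest endothelial and stromal marker sums of its group, given below. In cKO mice *Hey1* was 1.997, 1.46 and 3.13 CPM in CD103+CD11b- and 11, 25.9 and 3.06 CPM in CD103-CD11b+ DCs, which overlapped, and the log2 fold change of 2.68 ± 1.17 had an FDR of 0.142. For cKO against WT the values were -1.07 ± 1.19 and -2.16 ± 1.01 on the log2 scale in CD103+CD11b- and CD103-CD11b+ DCs, with FDRs of 0.876 and 0.298. Without WT CD103+CD11b- replicate 3 the first of these turned to 2.25.

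Genes of endothelium moved with several of these values. Gut cDCs were defined in the study by a gate on CD45, which endothelial cells lack. All 12 endothelial markers (such as *Pecam1*, *Cdh5* and *Kdr*) were counted in every group, with no defining marker at 0. Their sum was 247 to 661 CPM in WT and 135 to 362 CPM in cKO CD103+CD11b- DCs, and 2178 to 6320 CPM in WT and 470 to 2515 CPM in cKO CD103-CD11b+ DCs. Between the WT subsets 10 of the 12 were called higher in CD103-CD11b+ DCs, between the cKO subsets 5, and between genotypes 0 in either subset, where 2 in CD103+CD11b- and 1 in CD103-CD11b+ DCs had an unadjusted p under 0.05. The sum of 9 stromal markers was 22.6 to 553 and 74.8 to 313 CPM in WT and cKO CD103+CD11b- DCs and 440 to 1487 and 88.2 to 1894 CPM in WT and cKO CD103-CD11b+ DCs.

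WT CD103-CD11b+ replicates 2 and 3 had the highest *Notch1*, *Notch4*, *Jag1* and *Hey1* of the 12 samples and also the highest endothelial sums, 6320 and 2800 CPM. Between them, replicate 3 had the higher *Jag1* (438 against 264 CPM) and *Hey1* (112 against 56.0 CPM) but the lower endothelial sum. In replicates 1, 2 and 3 the stromal sums were 440, 1487 and 1344 CPM in WT and 582, 1894 and 88.2 CPM in cKO CD103-CD11b+ DCs. Among the cKO CD103-CD11b+ samples, replicate 3 had both the lowest endothelial sum, 470 CPM, and the lowest *Notch1*, *Notch4*, *Jag1* and *Hey1* of its group. WT CD103+CD11b- replicate 3 had endothelial and stromal sums of 661 and 553 CPM, against 361 and 22.6 CPM in replicate 1 and 247 and 25.2 CPM in replicate 2. It also had the highest *Notch4*, *Jag1*, *Hes1* and *Hey1* of its group, but the lowest *Notch1*. *Notch4* in cKO CD103+CD11b- DCs was high for its endothelial sums, at 133 to 203 CPM with sums of only 135 to 362 CPM. Within that group it kept their order, at 190, 203 and 133 CPM with sums of 166, 362 and 135 CPM. *Notch2* stayed within 627 to 893 CPM over the whole range of the endothelial sums. Its order was opposite to theirs in WT (825, 642 and 733 CPM) and cKO (674, 633 and 893 CPM) CD103-CD11b+ DCs, but not strictly so in CD103+CD11b- DCs.

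**Figure D4:**
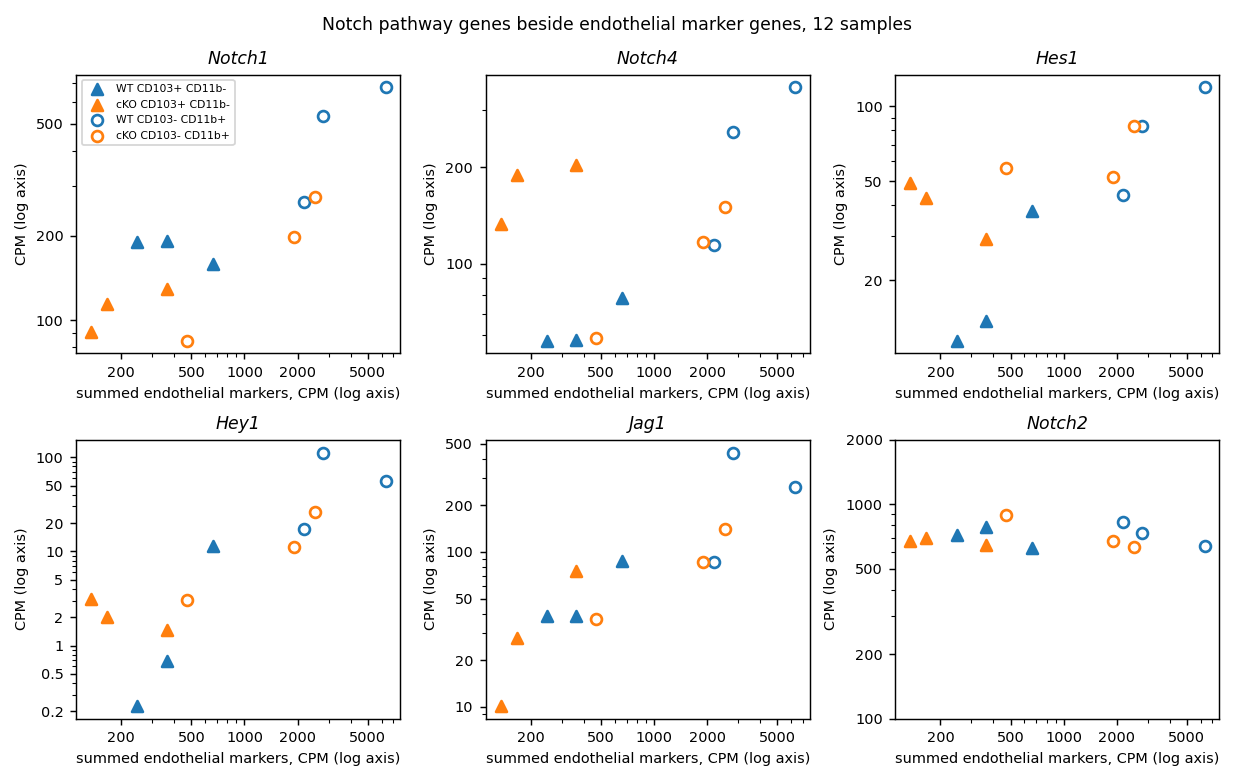
CPM of 6 genes (log axes) against the summed CPM of 12 endothelial markers in the 12 samples, by group. The cKO CD103+CD11b- samples lie at 133 to 203 CPM of *Notch4* with sums of 135 to 362 CPM, above WT samples of the same subset at 57.7 to 78.1 CPM.

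A fit with the log2 of this sum as a further term, chosen after the data had been seen, gave 0 of 10 members called between the WT subsets, where 421 genes in all were. Between the WT subsets *Notch1* was then -0.16, *Rbpj* -0.24, *Notch4* 0.18, *Hes1* 0.89 and *Hey1* 0.85 on the log2 scale, none of them called. The sum itself separated the subsets without overlap in both genotypes, so the term and the subset can only in part be told apart. In the same fit *Notch4* was called for cKO against WT in CD103+CD11b- DCs, at 1.95 on the log2 scale (FDR 0.00491), and for the difference of the effects between the subsets, at -2.40 (FDR 0.00947). Within groups, *Notch4* went with the sum by 0.53 on the log2 scale per doubling (FDR 0.0253), the one member whose slope had an FDR under 0.05. The next smallest FDR was that of *Notch2*, with a slope of -0.18 per doubling (FDR 0.0585). Between the cKO subsets 2 members were called in this fit, where 1516 genes in all were, *Notch4* lower at -2.22 and *Notch2* higher at 0.59, and *Adam10* and *Rbpj* no longer. The part of endothelial or stromal RNA in the differences between subsets was not tested beyond this.

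Of 66 further genes of the pathway (ligands, receptor processing and glycosylation, ubiquitin ligases, coactivators, corepressors, targets, and 3 surface genes of cDC2s known to depend on *Notch2*), 62 were tested. For cKO against WT, none was higher and 2 were lower in CD103+CD11b- DCs, *Maml3* and *Clec4a4*, where 0.224% of all genes were higher and 0.797% lower. In CD103-CD11b+ DCs 1 was higher, *Clec4a4*, and 2 were lower, *Maml3* and *Hes6*, where 1.11% of all genes were higher and 0.500% lower. Between the subsets in WT mice 9 of 62 were higher and 6 lower in CD103-CD11b+ DCs, where 11.8% and 7.00% of all genes were, and in cKO mice 6 were higher and 4 lower, where 9.26% and 6.81% of all genes were. Their median log2 fold changes were -0.019 and -0.17 between genotypes in CD103+CD11b- and CD103-CD11b+ DCs, against -0.017 and -0.061 over all genes, and 0.13 and 0.085 between subsets in WT and cKO mice, against 0.066 and 0.11 over all genes.

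*Maml3*, a Mastermind coactivator like *Maml2*, was called lower in both subsets. It went from 26.7, 19.2 and 25.4 CPM to 9.54, 9.52 and 10.95 CPM in CD103+CD11b- DCs, a 2.38-fold fall (log2 -1.25 ± 0.16, FDR 0.00536), and from 101, 109 and 93.9 CPM to 51.9, 61.1 and 62.7 CPM in CD103-CD11b+ DCs, a 1.73-fold fall (log2 -0.79 ± 0.15, FDR 0.0250). Groups did not overlap in either subset. The level in CD103-CD11b+ DCs was above that in CD103+CD11b- DCs in both genotypes (FDR 2.24e-05 in WT and 5.47e-06 in cKO mice). The summed cDC2 markers also went from 366 to 626 CPM in WT to 84.1 to 137 CPM in cKO CD103+CD11b- DCs, with 3 of the 6 called lower, while in CD103-CD11b+ DCs they were 976 to 1032 CPM in WT and 1027 to 1623 CPM in cKO samples. Their part in the fall in CD103+CD11b- DCs was not tested. In CD103+CD11b- DCs *Maml3* was called in 6 of 6 fits that left out a library, and in CD103-CD11b+ DCs its call was lost when only the 6 samples of the comparison were fitted (FDR 0.140, in a range of 0.000172 to 0.140 over all settings tried), with the endothelial term, without WT replicate 2 or 3, and without cKO replicate 1 or 2.

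*Hes6*, a Hes family member, was 49.5, 33.0 and 31.7 CPM in WT and 22.7, 13.8 and 15.3 CPM in cKO CD103-CD11b+ DCs, and fell there by 1.14 ± 0.24 on the log2 scale (FDR 0.0451). In CD103+CD11b- DCs it was 34.5, 25.9 and 26.0 CPM in WT and 16.0, 13.9 and 16.4 CPM in cKO samples, without overlap (log2 -0.90 ± 0.24, FDR 0.138). The epithelial sum was lower in cKO samples as well, at 400, 275 and 279 CPM in WT and 76.8, 99.2 and 116 CPM in cKO CD103-CD11b+ DCs, where 6 of 12 tested epithelial markers had an unadjusted p under 0.05 and 0 were called, and its part in the fall of *Hes6* was not tested. The call of *Hes6* in CD103-CD11b+ DCs was lost with upper quartile scaling, the 6 samples alone, the endothelial term, and in 5 of 6 fits that left out a library (all but cKO replicate 1), over a range of FDRs from 0.00245 to 0.229.

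*Clec4a4*, which encodes a C-type lectin of cDC2s, was 6.50, 4.80 and 6.31 CPM in WT and 0, 0.488 and 0.391 CPM in cKO CD103+CD11b- DCs, all 3 cKO samples lying under the floor. The summed counts were 79 in WT and 3 in cKO samples, a ratio of 21.8 after scaling, with an exact 95% interval for counting error of 7.19 to 108, and the test gave an FDR of 0.00490. The cDC2 marker sum given above for *Maml3* was lower in the same cKO samples, and its part in the fall of *Clec4a4* was not tested. In CD103-CD11b+ DCs it was 15.5, 9.66 and 9.60 CPM in WT and 36.8, 42.4 and 35.2 CPM in cKO samples, and rose 3.27-fold (log2 1.71 ± 0.35, FDR 0.0398). Without either WT replicate 2 or 3 or any cKO replicate of that subset the FDR of the rise was 0.0664 to 0.117, and *Clec4a4* belongs to a family of similar genes. *Esam*, an adhesion molecule of cDC2s and of endothelium, and *Cd4* were called in neither comparison of genotypes. *Esam* gave log2 fold changes of 0.071 in CD103+CD11b- and -0.996 in CD103-CD11b+ DCs, the latter with an FDR of 0.371. *Cd4* was 62.6 ± 32.5 and 18.6 ± 13.2 CPM (SD, n = 3) in WT and cKO CD103+CD11b- DCs and 19.3 ± 16.4 and 48.9 ± 16.5 CPM in WT and cKO CD103-CD11b+ DCs, with log2 fold changes of -1.71 (FDR 0.424) and 1.37 (FDR 0.355) and a difference of the effects of 3.08 (FDR 0.270).

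**Figure D5:**
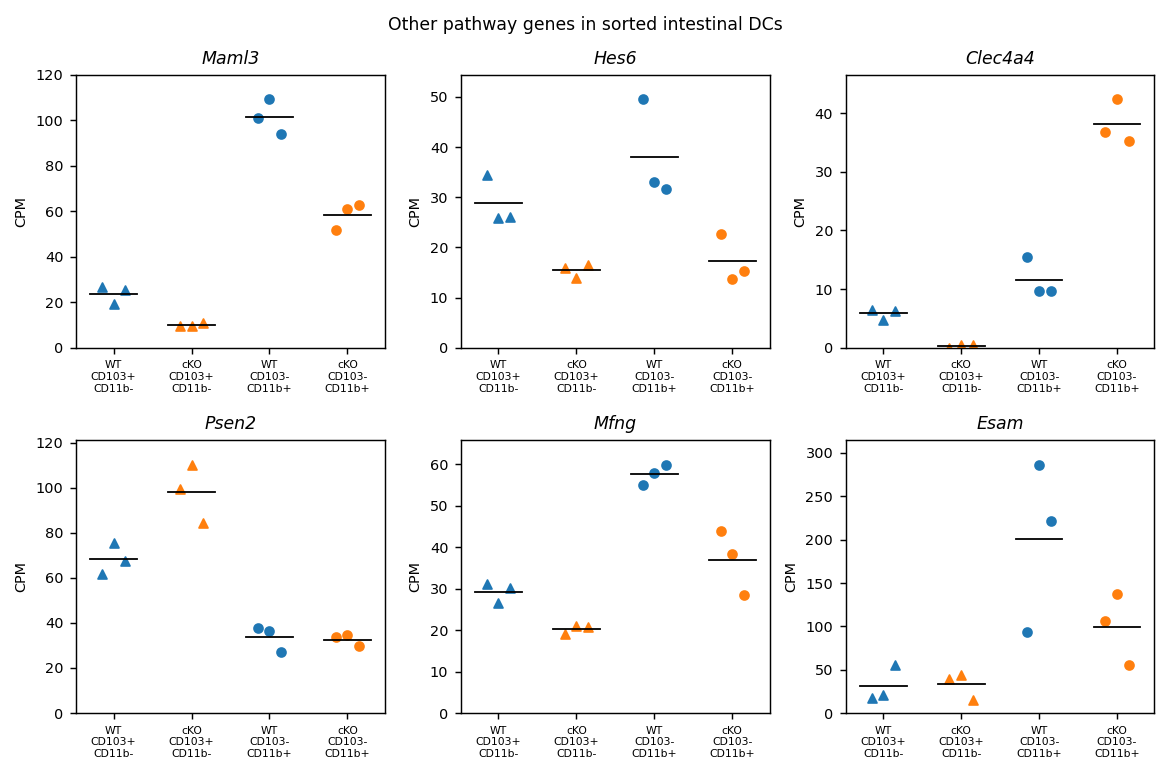
CPM of 6 further pathway genes in 12 samples (points, 3 per group; triangles CD103+CD11b-, circles CD103-CD11b+; blue WT, orange cKO) with group means as lines, on axes that start at 0. *Maml3* is 9.52 to 10.95 CPM in cKO against 19.2 to 26.7 CPM in WT CD103+CD11b- DCs, and *Clec4a4* is 35.2 to 42.4 CPM in cKO CD103-CD11b+ DCs against 9.60 to 15.5 CPM in WT.

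Between the subsets, *Maml3*, *Psen2*, *Mfng* and *Esam* were among the 5 of these further genes with the smallest p in WT mice. *Psen2*, a catalytic subunit of γ-secretase, was 68.2 ± 7.13 CPM (SD, n = 3) in CD103+CD11b- and 33.8 ± 5.83 CPM in CD103-CD11b+ DCs of WT mice, and 98.1 ± 12.99 against 32.6 ± 2.64 CPM in cKO mice, lower in CD103-CD11b+ DCs in both (FDR 0.00245 and 8.65e-05). *Mfng*, a Fringe glycosyltransferase that modifies Notch receptors, was higher in CD103-CD11b+ DCs in both genotypes, at 57.6 ± 2.47 against 29.3 ± 2.43 CPM in WT and 37.0 ± 7.81 against 20.3 ± 1.03 CPM in cKO mice (FDR 0.00299 and 0.00403). *Esam* was higher in WT CD103-CD11b+ DCs, at 201 ± 98.3 against 31.3 ± 21.3 CPM (FDR 0.0120), and 99.7 ± 41.7 against 33.0 ± 15.5 CPM in cKO mice (FDR 0.0794). In cKO mice *Clec4a4* and *Hes7* were also among the 5 with the smallest p, and *Hes7* was at 26 counts over the 3 CD103+CD11b- samples and 2 counts over the 3 CD103-CD11b+ samples. With the endothelial term *Maml3* and *Psen2* were called between the subsets in both genotypes, and *Mfng* and *Esam* in neither.

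The remaining receptor *Notch3* and the ligand *Dll4* were looked up after their values had been seen. *Notch3* was 65.5 ± 23.9 and 22.2 ± 18.7 CPM (SD, n = 3) in WT and cKO CD103+CD11b- DCs and 251 ± 142 and 77.4 ± 50.2 CPM in WT and cKO CD103-CD11b+ DCs, and no comparison was called, the smallest FDR being 0.0887 between the WT subsets. *Dll4* was 23.9 ± 13.1 and 7.16 ± 1.22 CPM in WT and cKO CD103+CD11b- DCs and 147 ± 78.8 and 47.9 ± 35.1 CPM in WT and cKO CD103-CD11b+ DCs. It was higher in CD103-CD11b+ DCs in both genotypes (FDR 0.0187 and 0.0184). With the endothelial term its difference was 0.024 and 0.19 on the log2 scale in WT and cKO mice, not called, and the comparisons of genotypes gave FDRs of 0.353 and 0.212.

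For the 6 members called between subsets, the 3 genes with the most similar pattern were found by the root mean square difference of log2 CPM, each gene centred on its own mean, over the 12 samples and 10683 genes with a mean of 10 CPM or more. They were *Bcr*, *Serpinb6a* and *Arhgef10* for *Notch1* (0.20 to 0.26 log2 units), *Parvb*, *Kcnj2* and *Dgkh* for *Notch4* (0.33 to 0.40), and *Vdac2*, *Ucp2* and *Itm2c* for *Rbpj* (0.11 to 0.12). For *Adam10* they were *Dennd6a*, *Tmem18* and *Herc2* (0.080 to 0.13), for *Hes1* *Bcl2*, *Sipa1l2* and *Nbl1* (0.39 to 0.41), and for *Hey1* *Kank1*, *Rbfox2* and *Filip1* (0.35 to 0.44). A member's own standard deviation over the samples was 0.93 for *Notch1*, 0.87 for *Notch4*, 0.46 for *Rbpj*, 0.33 for *Adam10*, 0.98 for *Hes1* and 2.26 for *Hey1*.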

How the data were processed

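Cells were sorted from gut, and RNA libraries were made by a RamDA-seq procedure, which primes total RNA at random. The authors trimmed reads (Trim Galore), mapped them with STAR 2.7 to mm10, discarded duplicate reads and those that mapped poorly, and used HTSeq, ignoring strand, to count on GRCm38 genes. The authors deposited raw counts per gene, 1 file per sample, not normalized. The counter's summary lines (59.7% to 66.1% of reads on no feature) were left out.

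Groups follow the sample titles, which name genotype and subset. Symbols and exon lengths came from GENCODE M21, with 99.7% of identifiers matched. Genes that reached 5 counts in 1 or more of the 12 samples were tested by edgeR 4.0.16 (limma 3.58.1, R 4.3.3) with TMM scaling and the quasi-likelihood F-test in 1 model of 4 groups. They were called at a Benjamini-Hochberg FDR under 0.05 and a fold over 1.3. The procedure was tested on simulated counts. CPM came from edgeR, RPKM is CPM per kilobase of exon, and log2 CPM for pattern likeness and pairing had a prior count of 2. Intervals and floors cover counting error only.

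The members and lists were chosen with earlier results of these data known. The text names the 10 members, further pathway genes called (at most 5 per comparison, by p), 3 cDC2 surface genes, sort markers and the 3 genes most like each called member. The values of 1 further pathway gene that met this rule are not reported here. Marker lists were cDC1, cDC2, macrophage, plasmacytoid DC, B cell, T cell, epithelial, endothelial and stromal. Among epithelial markers, *Cdx1* and *Olfm4* were at 0 in WT CD103+CD11b- and *Cdx1* in cKO CD103-CD11b+ DCs.

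The replicate numbers recur in all groups. Deviations from group means over genes that reached 5 counts throughout gave r of 0.25, 0.48 and 0.52 for same-numbered cKO samples of the 2 subsets. The labels do not say what the numbers share. These values alone cannot establish pairs, since WT CD103-CD11b+ and cKO CD103+CD11b- samples, which are from different mice, were also all over 0.1. The main model had no pairs, and the paired fit is an alternative, given where it changed a call. Same-numbered WT samples gave 0.39, -0.074 and 0.40, the genotypes in CD103+CD11b- DCs 0.26, -0.041 and 0.21, and in CD103-CD11b+ DCs 0.079, 0.54 and 0.32, so not every pair of these comparisons was over 0.1 and they were fitted without pairs. Of the groups not compared directly, WT CD103-CD11b+ with cKO CD103+CD11b- gave 0.22, 0.36 and 0.33, and WT CD103+CD11b- with cKO CD103-CD11b+ gave 0.087, -0.22 and -0.14. Alternatives were other filters, RLE and upper quartile scaling, DESeq2 1.42.0, edgeR's likelihood ratio test, replicate blocks, fits of 6 samples, other thresholds and leaving out each library. An endothelial term was added after the data had been seen. Plots used Python 3.11.15 with pandas 2.3.3 and matplotlib 3.10.9.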

Additional observations from a re-analysis of the deposited data

Results flagged for a closer look

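The effect of the cKO genotype on *Clec4a4* differed between the subsets by 5.98 on the log2 scale, with a standard error of 0.64 and an FDR of 0.00685 in edgeR's test of that difference, since it fell in CD103+CD11b- DCs and rose in CD103-CD11b+ DCs. The sum of 6 cDC2 markers was 366 to 626 CPM in WT and 84.1 to 137 CPM in cKO CD103+CD11b- DCs and 976 to 1032 and 1027 to 1623 CPM in CD103-CD11b+ DCs, and its part in the difference was not tested. The direction held for every one of the 3 cKO samples in each subset. The fitted value rests on 3 counts over the 3 cKO CD103+CD11b- samples and depends on how such low counts are treated. Over the settings that kept the gene the difference ran from 5.32 to 6.75, with FDRs from 6.28e-14 to 0.0294, and a filter of 5 counts in every sample left the gene out.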

How the results depend on the processing

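Depth limited the lowest gene, *Hey1*, which stood at or under 3 counts in 2 samples, and with 3 samples per group a single library often decided a call. With libraries left out in turn, the count of the 10 members called ran from 0 to 0 and 0 to 2 between genotypes in CD103+CD11b- and CD103-CD11b+ DCs, 1 to 7 and 0 to 3 between subsets in WT and cKO mice, and 0 to 1 for the difference of the effects. The last was 1, *Notch4*, with no filter, DESeq2, the likelihood ratio test, the replicate block within genotype and the endothelial term. For cKO against WT it was 1 in CD103+CD11b- DCs, *Notch4*, with DESeq2, the likelihood ratio test, 6 samples alone and the endothelial term. It was 1 in CD103-CD11b+ DCs, *Notch1*, with DESeq2 and the likelihood ratio test. Between subsets, 6 samples alone gave 3 in WT and 1 in cKO mice (2644 and 2804 of all genes, against 3860 and 3307), an FDR under 0.01 gave 0 in both (1115 and 1636), and the endothelial term gave 0 in WT mice (421). A stricter threshold can only lower a count, and the causes of the other changes were not tested. The other settings kept the count within 1.5 times.

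With the replicate number as a block over all groups, 6 members were called between the WT and 2 between the cKO subsets (4868 and 4329 of all genes) and 0 elsewhere, and within genotype the counts were 7 (*Adam10* and *Jag1* joined) and 3 (*Jag1* joined), with 5196 and 4427 of all genes. Of the 4 comparisons of 2 groups, the one between the cKO subsets had all 3 same-numbered pairs over an r of 0.1, but what the number stands for is not known in any of them. Upper quartile scaling shifted the median of all genes by -0.11 on the log2 scale between the WT subsets and took the share of calls that were higher from 62.7% to 53.0% there, and from 68.9% to 81.4% for the genotypes in CD103-CD11b+ DCs. No called member changed direction with it.

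Of the members' log2 fold changes, 450 kept direction and side of the threshold over settings other than left-out libraries, 23 passed it newly, 9 lost it and 33 turned. A value that turned was counted only as turned, even if its call was lost, as for *Notch1* between the WT subsets with the endothelial term. With libraries left out, 304 kept both, 6 passed it newly, 22 lost it and 28 turned. The values that turned by a scaling, filter, test or block lay between -0.070 and 0.11. The *Dtx4* difference of effects was -0.017 with 5 counts in every sample, -0.025 with RLE factors and -0.028 with DESeq2. *Notch2* in CD103-CD11b+ DCs (cKO against WT) was 0.017 with edgeR's own filter, 0.013 with RLE factors, 0.11 with upper quartile factors, 0.012 with DESeq2, 0.00082 with the replicate block and 0.042 with 6 samples. Upper quartile factors also turned *Notch2* between the WT subsets (-0.070), *Adam10* in CD103-CD11b+ DCs (0.032) and the *Maml2* difference of effects (0.0030), which was 0.020 and 0.024 with the replicate block over all groups and within genotype.

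The endothelial term turned *Rbpj* (-0.036), *Maml2* (0.14), *Hey1* (0.38) and *Jag1* (0.15) between genotypes in the CD103+CD11b- subset. In the other subset it turned *Rbpj* (-0.011), *Adam10* (0.13), *Maml2* (0.30) and *Hes1* (0.16). Between the WT subsets it turned *Notch1* (-0.16), *Maml2* (-0.79) and *Jag1* (-0.33), and between the cKO subsets *Notch1* (-0.69), *Maml2* (-0.63), *Hes1* (-0.31), *Hey1* (-0.72) and *Jag1* (-1.09). For the difference of the effects it turned *Notch2* (-0.00087), *Maml2* (0.16) and *Dtx4* (-0.025).

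With libraries left out, ranges that crossed 0 between genotypes were -1.57 to 2.25 for *Hey1* in CD103+CD11b- DCs. For CD103-CD11b+ DCs they were -0.17 to 0.12 for *Notch2*, -0.22 to 0.13 for *Adam10*, -0.54 to 0.18 for *Maml2*, -0.64 to 0.023 for *Hes1* and -0.0059 to 0.43 for *Rbpj*. Between subsets they were -0.099 to 0.12 for *Notch2* and -0.027 to 0.22 for *Dtx4* in WT mice and -0.036 to 0.23 for *Notch2* in cKO mice. For the difference of the effects they were -0.35 to 0.37 for *Maml2*, -0.11 to 0.17 for *Dtx4*, -0.079 to 0.27 for *Adam10*, -0.081 to 0.19 for *Notch2* and -0.15 to 0.28 for *Rbpj*.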
